A study of Homo sapiens with 8 samples.

Results

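The genes described are 10 that encode proteins of the minor spliceosome and have no known place in the major one. They were chosen by symbol, from what is known of the complex, and all 10 were found among the 25435 gene rows of the deposited table. They fall into 4 groups by role. SNRNP25, SNRNP35, SNRNP48 and PDCD7 encode proteins of the U11 particle. RNPC3 encodes the protein that holds U11 and U12 together, and ZMAT5 and ZCRB1 encode further proteins of the joined U11/U12 particle. SCNM1, RBM48 and ARMC7 encode factors found in the minor spliceosome once it has been activated.

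A small class of human introns, called U12-type or minor introns, is removed by a separate machine built on the small nuclear RNAs U11, U12, U4atac and U6atac. U11 pairs with the 5′ splice site and U12 with the branch point, and both act together as a di-snRNP, a joined pair of RNA-protein particles. ZRSR2 is the protein that takes part in recognising the 3′ splice site of these introns, and ZRSR2 mutations recur in myeloid neoplasms. SNRNP48 contacts the 5′ splice site, SNRNP35 resembles a protein of the U1 particle of the major spliceosome, and PDCD7 and RNPC3 bind each other.

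The measurements were made by RNA sequencing in SET-2 cells, a human megakaryoblastic line established from an essential thrombocythemia in leukemic transformation, which carries an activating JAK2 mutation in every group. The 4 knockout libraries came from cells that received 1 of 2 guide RNAs against ZRSR2, and the 4 control libraries from cells that received 1 of 2 non-targeting guides. Each guide was used in 2 experiments: in each genotype, replicates 1 and 2 carry guides 1 and 2 in experiment 1, while replicates 3 and 4 carry the same guides in experiment 2. Biological replicate 1 was collected on day 20 after transduction and biological replicate 2 on day 25, and the experiment number is taken here, as an assumption, to be the replicate number. The series title places these data in the question of what loss of ZRSR2 does in a JAK2-driven neoplasm. All libraries come from 1 cell line, and the labels do not say that guide populations were made more than once in an experiment. P-values therefore measure only the spread between these libraries, which may in part be technical. In bulk RNA, a lower level in every cell and a normal level in fewer cells cannot be told apart.

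RNPC3 and SNRNP48 carry the sequence element known to tie this machine to its own supply. In both genes, U11 binding to a tandem pair of 5′ splice-site-like octamers is known to steer splicing of the transcript. The pairs found in GENCODE 29 transcripts on GRCh38 are shown with the octamers in capitals, 5′ to 3′ on the sense strand.
RNPC3: GTATCCTTtcttgtcGTATCCTT
SNRNP48: GTATCCTTtttgcaaatgATATCCTT
The RNPC3 pair lay at chr1:103553318-103553340 on the plus strand, in the 3′ UTR of the principal annotated transcript, with 7 bases between the octamers. The SNRNP48 pair lay at chr6:7599736-7599761 on the plus strand, with 10 bases between the octamers. It fell in intron 4 of the 8 introns of the principal transcript and was read from a second transcript annotated with a retained intron. The search used GTATCCTT or ATATCCTT, each followed by either again within 60 bases, on the sense strand of annotated transcripts. It found such a pair in 2 of the 10 genes and in 20 of 57133 gene names, or 0.035%. The element was already known from these 2 genes, so finding it in them was no test and shows no excess over that share. Introns that no annotated transcript retains were not searched in any gene. A match is a description of these letters only.

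The 8 libraries held 31106042 to 71521173 expected counts, and all 10 genes were among the 14898 that passed the filter on low counts. The first principal component separated the 2 experiments and carried 77% of the variance. Megakaryocytic and erythroid markers were present in every library, with ITGA2B, the platelet integrin alpha chain, at 2090 to 2710 CPM (counts scaled to a library total of 1000000) and GATA1, a lineage transcription factor, at 241 to 306 CPM. Among markers of other cell types, CD3E of T cells reached at most 0.0451 CPM, MS4A1 was at 0, and CD14, COL1A1 and ALB stayed under 1 CPM, at most 0.996. EPCAM, an epithelial marker, was at 3.59 to 21.1 CPM, and PECAM1, shared by endothelial cells and megakaryocytes, at 111 to 141 CPM. PF4, a platelet chemokine, was at only 1.1 to 3.03 CPM.

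ZRSR2 RNA was lower in the libraries given ZRSR2 guides but still present, with a mean at 62.9% of control. Knockout replicates 1 to 4 had 29.4, 22.9, 28.3 and 18.7 CPM, and control replicates 1 to 4 had 37.9, 39.2, 39.7 and 41.1 CPM. The 4 knockout libraries all lay below the 4 controls, with means of 24.8 ± 4.99 and 39.5 ± 1.34 CPM (SD, n = 4 each). An exact two-sided permutation test over the 70 splits gave p = 0.0286, the smallest it can give. With labels moved only within experiments, the exact permutation test gave p = 0.0556, which is the smallest its 36 arrangements allow, so it could not pass 0.05. In the fit with genotype alone, edgeR's quasi-likelihood test gave a log2 fold change of −0.67 (SE 0.15) and an adjusted p of 1. With the experiment as a replicate block, the adjusted p was 0.275 by edgeR and 0.000538 by DESeq2. Counts per gene do not show which share of cells was edited or how much protein was left.

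The rows of the 10 genes stood at very different levels, and that of SCNM1 lay far below the rest. SCNM1 overlaps TNFAIP8L2 on the same strand, and how reads were split between their rows was not tested. Its low value may therefore not be its true level. Levels are compared here per length, as CPM per kilobase of the principal GENCODE 29 transcript, over all 8 libraries. SNRNP25 had the highest mean, 39.5 ± 9.32 (SD, n = 8), and ZMAT5 followed at 36.2 ± 2.72. PDCD7 was at 21.2 ± 1.21 and ZCRB1 at 18.2 ± 3.38 CPM per kilobase. SNRNP35 (10.3 ± 0.904), ARMC7 (10.1 ± 2.39), RBM48 (8.11 ± 0.943) and SNRNP48 (6.38 ± 0.963) formed a lower stretch of the order. RNPC3, the bridge between the U11 and U12 particles, was at 1.72 ± 0.204 and SCNM1 at 0.18 ± 0.0694 CPM per kilobase. Between neighbours in this order, the ranges over libraries separated ZMAT5 from PDCD7, ZCRB1 from SNRNP35, SNRNP48 from RNPC3 and RNPC3 from SCNM1. The other 5 neighbouring pairs overlapped. The order depends on the transcript chosen: with the longest coding transcript, SNRNP25 was at 22.5 CPM per kilobase, under ZMAT5, and RBM48 at 3.45, under SNRNP48.

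**Figure D1:**
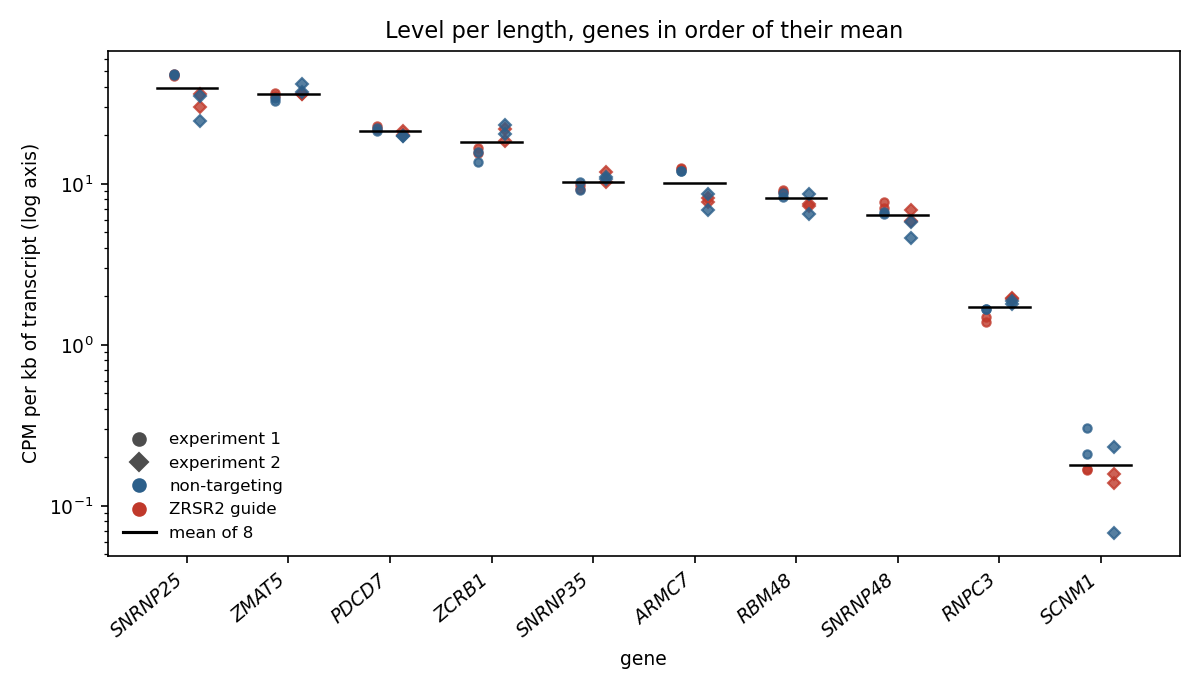
Level per length of each of the 10 genes in the 8 libraries, in CPM per kilobase of the principal transcript on a log axis, with circles for experiment 1, diamonds for experiment 2, colour for genotype and a black line for the mean. SNRNP25 and ZMAT5 lie highest at means of 39.5 and 36.2, RNPC3 at 1.72 and SCNM1 lowest at 0.18.

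No gene of the 10 was called changed by the ZRSR2 guides. In the comparison of all 4 knockout with all 4 control libraries, 0 of 10 passed an adjusted p of 0.05 by edgeR's quasi-likelihood test, against a background of 0% of the 14898 genes. At an unadjusted p under 0.05 there were also 0 of 10, against 0.597% of all genes. DESeq2 called 0 of the 10 as well, with 4 genes called over the whole table. Log2 fold changes ran from −0.06 for RNPC3 to 0.23 for SNRNP48, apart from −0.36 for SCNM1, and their median was 0.015 beside −0.003 over all genes. The libraries of the 2 genotypes overlapped for all 10 genes, while 0.678% of all genes had no overlap.

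With the experiment as a replicate block, the biological coefficient of variation over all genes went from 0.29 to 0.108 and intervals were narrower, and no call differed for the 10 genes. In this fit, 0 of 10 genes were called (background 0%), and 1 of 10, SNRNP48, was at an unadjusted p under 0.05, where 4.63% of all genes were. For 9 of the 10 genes the 95% interval lay within 0.5 of zero on the log2 scale, and with genotype alone for 6. Leaving out SCNM1, the intervals of the others together spanned −0.31 to 0.45 with the block and −0.5 to 0.6 with genotype alone. A change of the size seen for ZRSR2 itself, −0.67, was outside the interval of each of these 9 genes.

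Among the U11 proteins, SNRNP48 stood slightly higher in knockout libraries within each experiment, and the other 3 lay close to their controls. SNRNP48 in experiment 1 was at 29.6 and 32.2 CPM with ZRSR2 guides 1 and 2, and at 27 and 27.7 CPM with the non-targeting guides. In experiment 2 it was at 24.4 and 28.8 CPM with ZRSR2 guides and at 19.2 and 24 CPM in controls. Both knockout libraries lay above both controls in each experiment, while over all 8 libraries the groups overlapped. The means were 28.8 ± 3.24 and 24.5 ± 3.88 CPM (SD, n = 4 each), a level in knockout of 118% of control. The log2 fold change was 0.23 (95% interval −0.10 to 0.56) with genotype alone. With the block it was 0.24 (SE 0.10, 0.04 to 0.45), and the adjusted p by edgeR's quasi-likelihood test was 1 in both fits. SNRNP48 was the 1 gene of the 10 whose knockout libraries lay on the same side of their controls in both experiments, which 5.73% of all genes did, 2.46% on the higher side and 3.26% on the lower. Its difference between genotypes did not pass the test over all genes.

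SNRNP25 averaged 43.6 ± 9.5 CPM in knockout and 42.2 ± 12.1 CPM in control libraries (SD, n = 4 each). Its log2 fold change with the block was 0.06 (95% interval −0.17 to 0.29). SNRNP35 averaged 20.4 ± 2.22 and 20.3 ± 1.56 CPM, with a blocked log2 fold change of 0.00 (−0.18 to 0.19). PDCD7, the partner of RNPC3 on the U11 side, averaged 61.6 ± 3.46 and 59.1 ± 3.37 CPM, with a blocked log2 fold change of 0.06 (−0.08 to 0.20). For these 3 genes the difference between genotypes was smaller than the SD of either group.

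The bridge protein gene RNPC3 was lower with ZRSR2 guides in experiment 1 and slightly higher in experiment 2. In experiment 1 it was at 5.03 and 5.4 CPM in knockout and at 6.08 and 6.1 CPM in control libraries. In experiment 2 it was at 7.1 and 6.96 CPM in knockout and at 6.79 and 6.54 CPM in control libraries. The knockout pair lay wholly below its controls in the first experiment and wholly above them in the other one. The log2 fold changes were −0.22 (95% interval −0.58 to 0.13) and 0.08 (−0.26 to 0.42). Their difference of 0.30 (−0.19 to 0.79) had an adjusted p of 1 by edgeR's quasi-likelihood test, so the 2 experiments were not shown to differ. RNPC3 overlaps AMY2B on the same strand, whose row was at 0.112 to 0.485 CPM.

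The 2 other proteins of the joined particle showed no difference between genotypes beyond the spread of libraries. ZMAT5 averaged 32.4 ± 0.639 CPM in knockout and 32.7 ± 3.64 CPM in control libraries, with a blocked log2 fold change of −0.01 (95% interval −0.19 to 0.16). ZCRB1 averaged 33.1 ± 5.07 and 33.4 ± 7.92 CPM, with a blocked log2 fold change of 0.00 (−0.20 to 0.21).

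For the factors of the activated spliceosome, RBM48 averaged 14.3 ± 1.69 CPM in knockout and 14 ± 1.83 CPM in control libraries. Its partner ARMC7, with which it forms a dimer, averaged 21.8 ± 5.54 and 21 ± 5.43 CPM. Their blocked log2 fold changes were 0.02 (95% interval −0.20 to 0.25) and 0.05 (−0.15 to 0.24). SCNM1, a zinc-finger protein of the same stage, could hardly be measured: it had 5 to 33 counts in a library. Its knockout libraries were at 0.337, 0.339, 0.316 and 0.281 CPM, and its controls at 0.421, 0.61, 0.47 and 0.137 CPM. A floor of 3 counts corresponds to 0.0428 to 0.0971 CPM, so the lowest control stood not far above it. The blocked log2 fold change of SCNM1 was −0.39 (−1.18 to 0.41), an interval that leaves room for a large decrease and a moderate increase. Leaving out 1 library moved it from −0.61 (without control replicate 4) to −0.11 (without control replicate 3) in this fit, and it was not called in any of the 8. SCNM1 also overlaps TNFAIP8L2 on the same strand, which was at 15.3 to 23.5 CPM. On the other strand it overlaps VPS72, at 66.2 to 81.8 CPM, and TMOD4, at 1.27 to 2.23 CPM. The read-through gene TNFAIP8L2-SCNM1 was listed at 0 in all 8 libraries, and how reads were split between these rows was not tested.

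**Figure D2:**
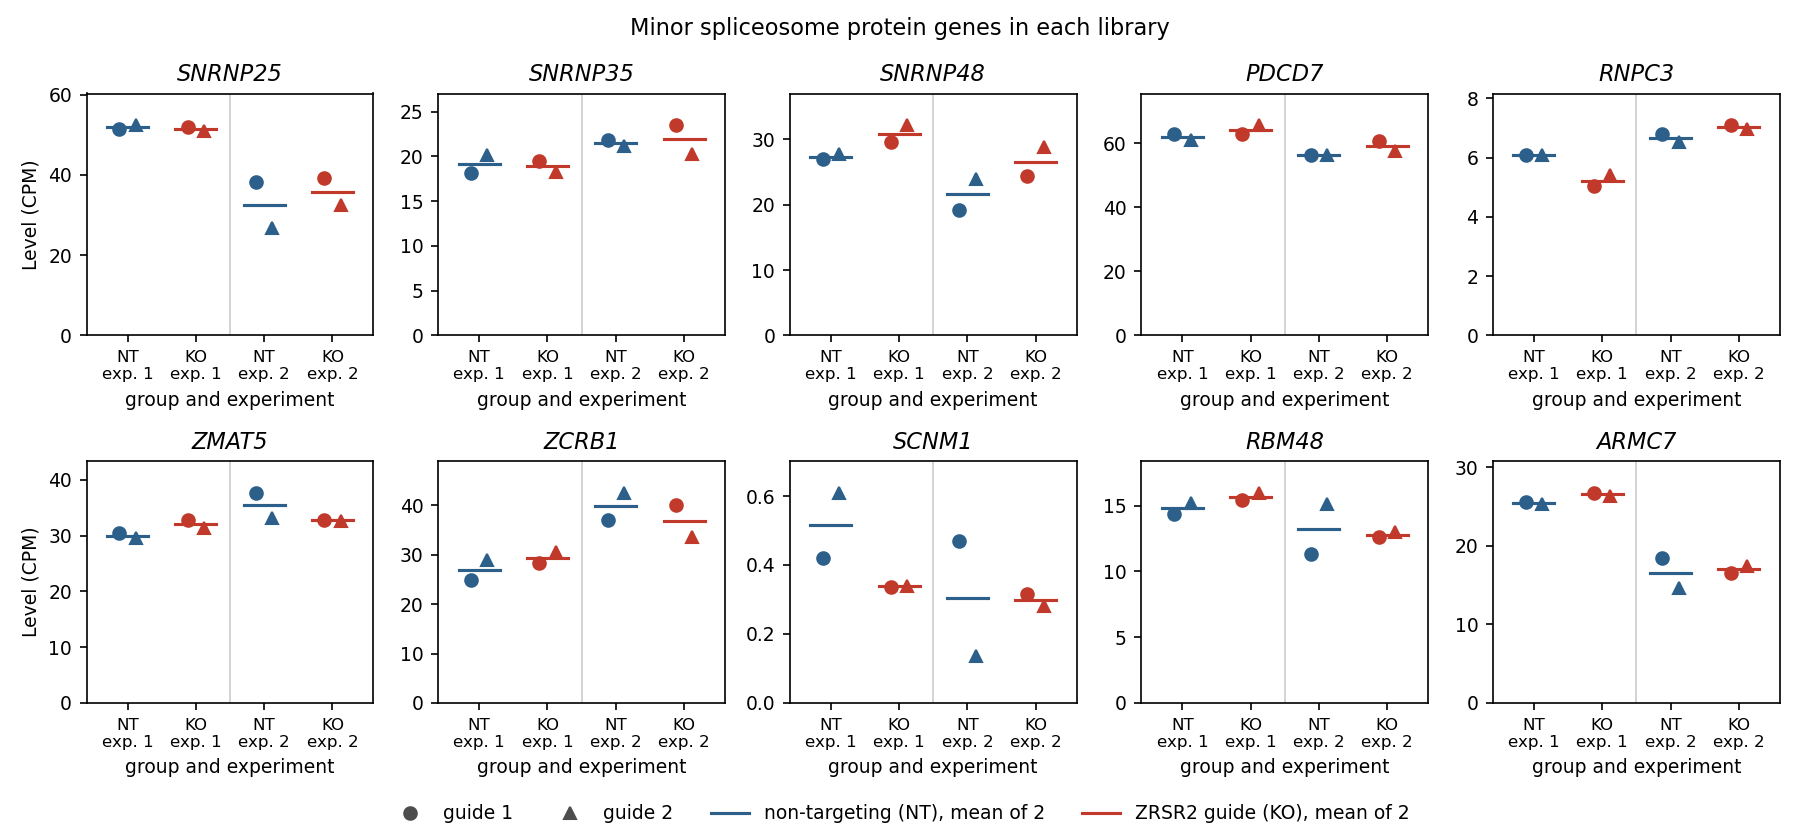
Level of each of the 10 genes in each library, in CPM, by group (NT for non-targeting, KO for ZRSR2 guide) and experiment, with circles for guide 1, triangles for guide 2 and a line for the mean of 2 libraries. SNRNP48 in knockout lies above control in both experiments, SNRNP25 and ARMC7 drop and ZCRB1 climbs from experiment 1 to experiment 2, and SCNM1 stays at or below 0.61 CPM.

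Within single experiments the picture was the same. In experiment 1, 0 of 10 genes were called by edgeR's quasi-likelihood test (background 0%), and 0 of 10 were at an unadjusted p under 0.05 (2.05% of all genes). In experiment 2, 0 of 10 were called (background 0%), and again 0 of 10 were at an unadjusted p under 0.05 (4.33%). SNRNP48 had log2 fold changes of 0.18 (95% interval −0.13 to 0.49) and 0.31 (−0.00 to 0.62) in the 2 experiments, with adjusted p of 1 and 0.998. Their difference was 0.13 (−0.31 to 0.57). For such a difference, 0 of 10 genes were called (background 0%) and 0 of 10 were at an unadjusted p under 0.05 (1.66% of all genes). In experiment 1, 6 of the 10 genes had both knockout libraries on 1 side of both controls, where 36.4% of all genes did. SNRNP48, ZMAT5, RBM48 and ARMC7 were on the higher side (18.5% of all genes) and RNPC3 and SCNM1 on the lower (17.9%). In experiment 2 there were 4 such genes (background 23.5%), with SNRNP48, PDCD7 and RNPC3 higher (11.2%) and ZMAT5 lower (12.3%). ZMAT5 and RNPC3 thus lay on opposite sides of their controls in the 2 experiments.

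**Figure D3:**
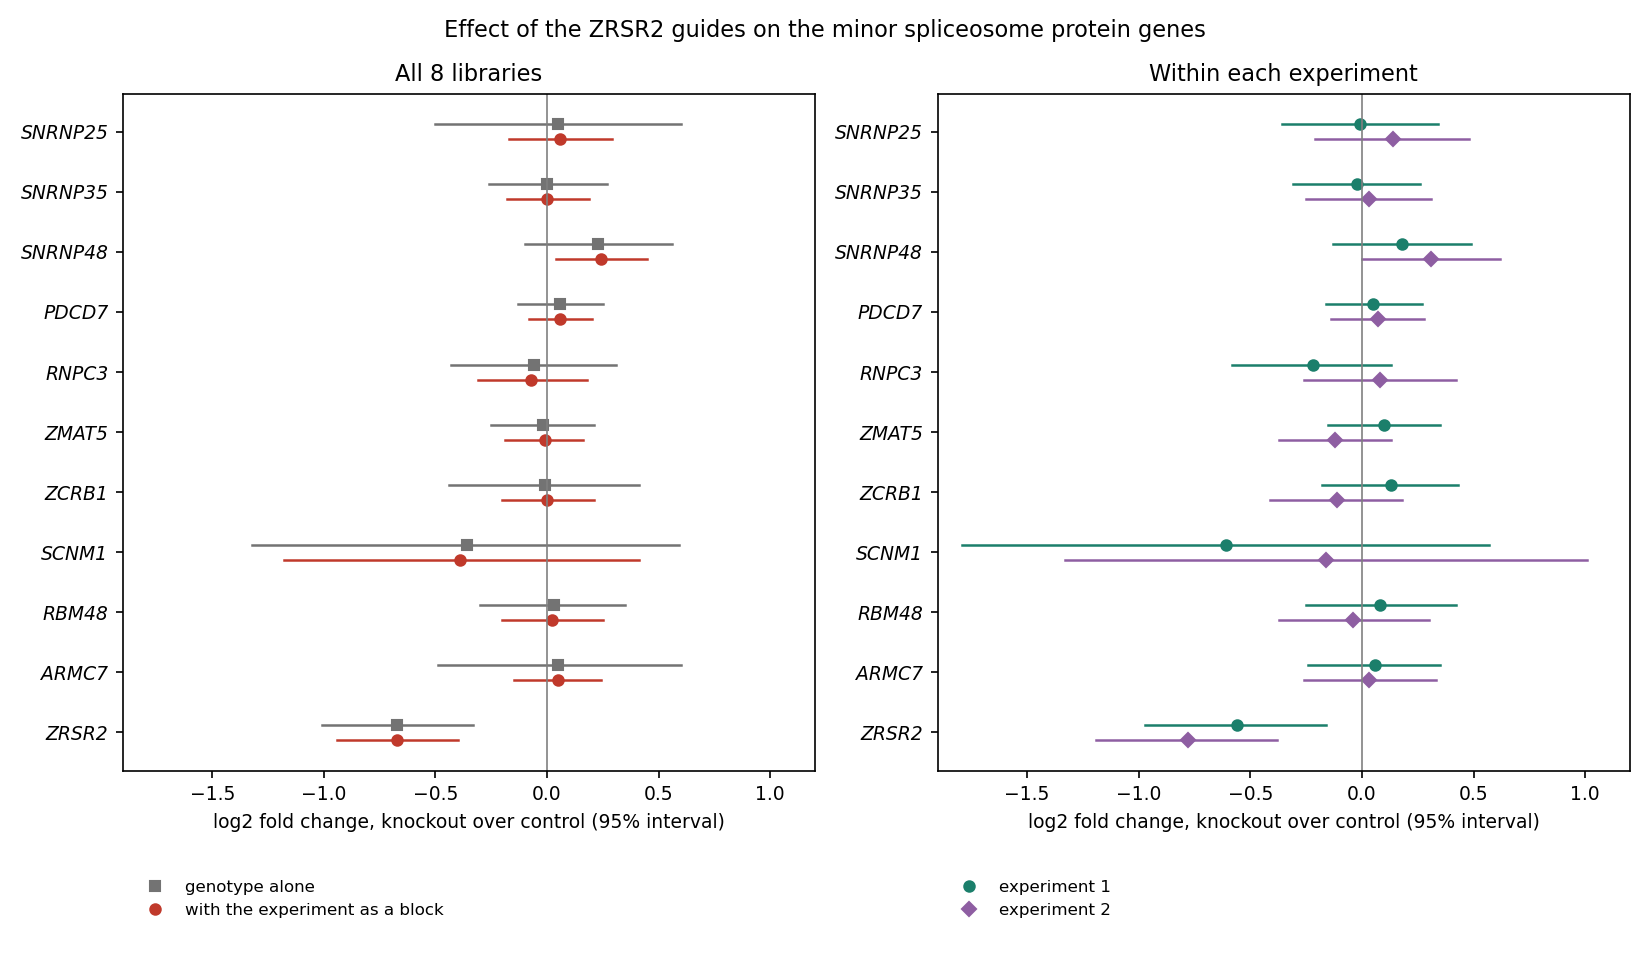
Log2 fold change of knockout over non-targeting for each of the 10 genes and ZRSR2, with 95% intervals, from all 8 libraries with genotype alone or with the experiment as a block (left) and within each experiment (right). With the block the intervals of the 9 genes other than SCNM1 lie between −0.31 and 0.45, and ZRSR2 lies at −0.67.

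ZRSR2 averaged 28.9 CPM with guide 1 and 20.8 CPM with guide 2, and the 10 genes were read against each guide in turn. With the block, ZRSR2 was at −0.45 (SE 0.11) with guide 1 and at −0.93 (SE 0.11) with guide 2 on the log2 scale, with adjusted p of 1 and 0.0303 by edgeR's quasi-likelihood test. Without the block the guide 2 value was −0.92, with an adjusted p of 1 by edgeR, while DESeq2 called it both without the block (adjusted p = 1.29e-09) and with it (4.34e-10). In edgeR fits with the block that left out 1 library, the guide 2 value ran from −1.09 to −0.77. It kept the call without control replicate 3 and without control replicate 4, and lost it without any of the other 6 (adjusted p 0.0615 to 0.232). The 2 guides share the controls, so their effects are given side by side. The difference between guides was −0.47 for ZRSR2, with an adjusted p of 1. Of the 10 genes, 0 were called with guide 1 (background 0%), 0 with guide 2 (0.0201%) and 0 for guide 2 against guide 1 (0%), all with the block. SNRNP48 averaged 27 CPM with guide 1, 30.5 CPM with guide 2 and 24.5 CPM in controls. Its blocked log2 fold change was 0.15 (95% interval −0.10 to 0.40) with guide 1 and 0.33 (0.08 to 0.58) with guide 2. The guide 2 value had an adjusted p of 0.82 by edgeR's quasi-likelihood test. At an unadjusted p under 0.05 there were 0 of 10 genes with guide 1 (2.79% of all genes), 1 of 10 with guide 2, SNRNP48 (4.89%), and 0 of 10 for the difference between guides (2.73%). That difference was 0.18 (−0.11 to 0.47) for SNRNP48. RNPC3 was at −0.08 (−0.41 to 0.24) with guide 1 and −0.05 (−0.37 to 0.27) with guide 2.

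**Figure D4:**
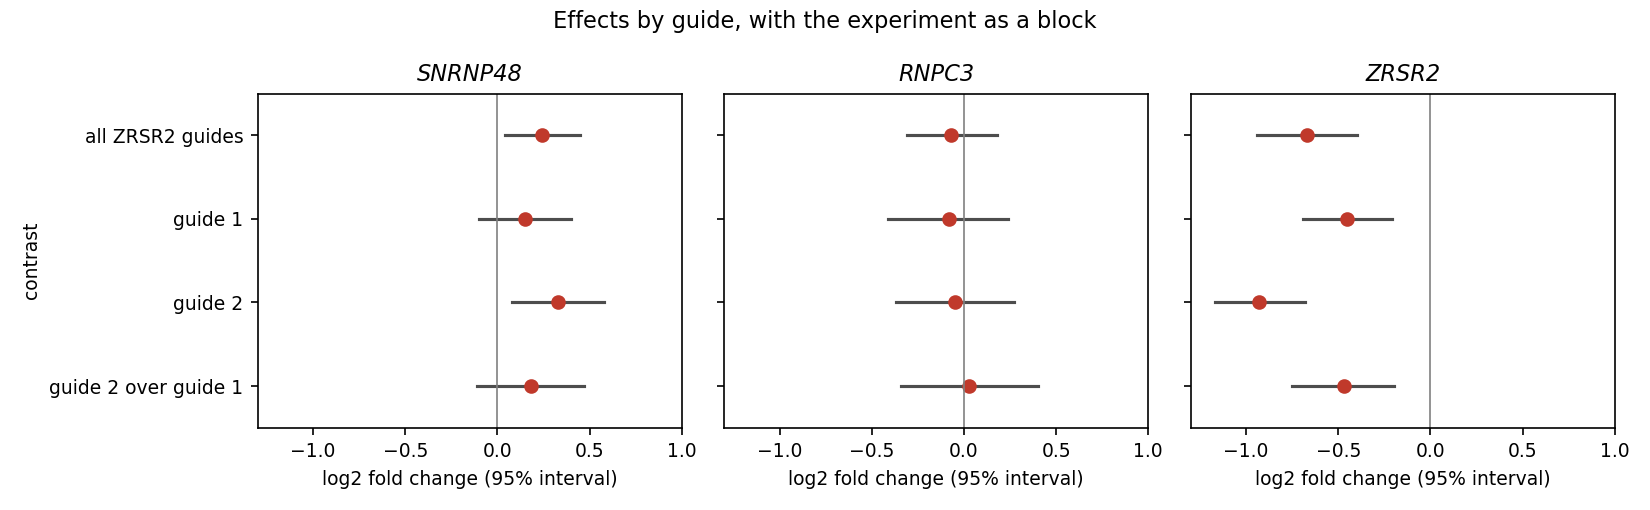
Log2 fold changes with 95% intervals for ZRSR2, SNRNP48 and RNPC3 by guide, with the experiment as a block, for all knockouts, each ZRSR2 guide against non-targeting, and guide 2 against guide 1. ZRSR2 lies at −0.45 and −0.93 with guides 1 and 2, SNRNP48 at 0.15 and 0.33, and RNPC3 at −0.08 and −0.05.

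Like the whole table, the 10 genes differed more between experiments than between genotypes. Their median absolute log2 fold change was 0.280 between experiments and 0.050 with the guides, beside 0.371 and 0.070 over all genes. Between experiment 2 and experiment 1, 5 of the 10 genes passed an adjusted p of 0.05, against 58.2% of all genes, so the share among them was near the background. ZCRB1 and RNPC3 were higher in experiment 2 (29.6% of all genes), and SNRNP25, ARMC7 and SNRNP48 were lower (28.6%). The median signed log2 fold change of the 10 was −0.181, beside 0.003 over all genes. Experiment, collection day and any batch cannot be told apart in this design.

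ARMC7 and SNRNP25 fell most. ARMC7 in experiment 1 was at 26.8 and 26.3 CPM in knockout and at 25.6 and 25.4 CPM in control libraries. In experiment 2 it was at 16.5 and 17.4 CPM in knockout and at 18.5 and 14.6 CPM in control libraries. All 4 libraries of experiment 2 lay below all 4 of experiment 1, with means of 16.8 ± 1.64 and 26 ± 0.635 CPM (SD, n = 4 each). The log2 fold change of ARMC7 was −0.63 (SE 0.10, adjusted p = 0.000233 by edgeR's quasi-likelihood test). Its dimer partner RBM48 averaged 13 ± 1.55 and 15.3 ± 0.667 CPM in experiments 2 and 1, and its log2 fold change of −0.23 had an adjusted p of 0.0862. RBM48 was called (−0.35) when control replicate 4, its highest library of experiment 2, was left out.

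SNRNP25 in experiment 1 was at 51.9 and 51 CPM in knockout and at 51.4 and 52.4 CPM in control libraries, almost the same value 4 times. In experiment 2 it was at 39.1 and 32.4 CPM in knockout and at 38.1 and 26.8 CPM in control libraries, lower in all 4 and less even. The means were 34.1 ± 5.69 and 51.7 ± 0.6 CPM, and its log2 fold change was −0.60 (SE 0.11, adjusted p = 0.000939 by edgeR's quasi-likelihood test). POLR3K, an RNA polymerase III subunit gene that overlaps SNRNP25 on the opposite strand, averaged 21.6 ± 3.12 CPM in experiment 2 against 36.7 ± 1.67 CPM in experiment 1. Whether strand was used in counting is not given in the sources used here, so reads of these 2 genes may not be separated. The same holds for ARMC7 with NT5C, SNRNP35 with RILPL1 and ZMAT5 with CABP7, each pair on opposite strands. RILPL1 averaged 12 CPM in experiment 2 against 6.22 CPM in experiment 1. CABP7 averaged 13.9 against 9.99 CPM, and NT5C 32.7 against 34 CPM.

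ZCRB1 went the other way. In experiment 1 it was at 28.3 and 30.5 CPM in knockout and at 24.9 and 29 CPM in control libraries. In experiment 2 it was at 40 and 33.6 CPM in knockout and at 37 and 42.6 CPM in control libraries. Again the experiments did not overlap, with means of 38.3 ± 3.86 and 28.2 ± 2.35 CPM (SD, n = 4 each), and the log2 fold change of ZCRB1 was 0.44 (SE 0.10, adjusted p = 0.0024 by edgeR's quasi-likelihood test). The calls of ARMC7, SNRNP25 and ZCRB1 held in each of the 8 fits that left out 1 library. Without 1 library, ARMC7 ran from −0.72 to −0.56, SNRNP25 from −0.74 to −0.49 and ZCRB1 from 0.38 to 0.50.

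The calls of SNRNP48 and RNPC3 between experiments lay near the threshold and were lost in most fits that left out 1 library, with fold changes of similar size. SNRNP48 averaged 24.1 ± 3.94 CPM in experiment 2 against 29.1 ± 2.35 CPM in experiment 1. Its log2 fold change of −0.28 had an adjusted p of 0.0318 by edgeR's quasi-likelihood test. Without 1 library it ran from −0.37 to −0.20. It kept the call in 2 of 8 such fits, those without knockout replicate 4 and without control replicate 4, and lost it without any of the other 6 libraries (adjusted p 0.0555 to 0.119). RNPC3 averaged 6.85 ± 0.241 and 5.65 ± 0.529 CPM, and its log2 fold change of 0.28 had an adjusted p of 0.0495. Without 1 library RNPC3 ran from 0.26 to 0.31. It kept the call in 1 of 8 fits, that without control replicate 4, and lost it under DESeq2 (adjusted p = 0.0908), without a count filter (0.0973) and with the guide as a block (0.0849). With the guide as a replicate block, 4 of 10 genes were called (background 58.8%).

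SNRNP35, PDCD7, ZMAT5 and SCNM1 were not called between experiments. SNRNP35 averaged 21.7 ± 1.35 CPM in experiment 2 against 19 ± 0.943 CPM in experiment 1, and PDCD7 at 57.6 ± 2.11 and 63 ± 1.92 CPM. The libraries of the 2 experiments did not overlap for either gene, yet the adjusted p was 0.0961 for SNRNP35 and 0.126 for PDCD7. In all, 6 of 10 genes had no overlap between experiments (background 56%), 3 higher (28%) and 3 lower (28%). ZMAT5 was at 34.1 ± 2.42 and 31.1 ± 1.38 CPM (adjusted p = 0.174 by edgeR's quasi-likelihood test), and SCNM1 at 0.301 ± 0.137 and 0.427 ± 0.128 CPM (adjusted p = 0.382). SCNM1 was called, at −1.03, only without control replicate 3, SNRNP35, at 0.24, only without knockout replicate 4, and ZMAT5, at 0.17, only without control replicate 4.

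**Figure D5:**
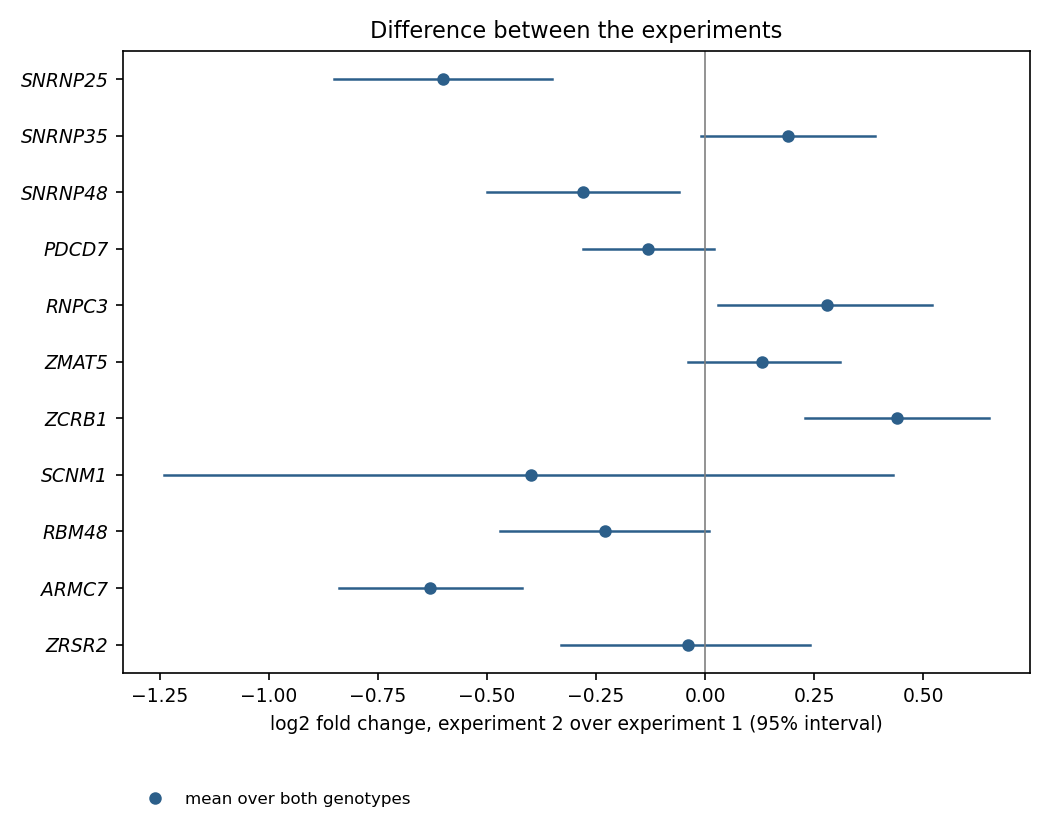
Log2 fold change of experiment 2 over experiment 1 for each of the 10 genes and ZRSR2, averaged over both genotypes, with 95% intervals. ARMC7 (−0.63) and SNRNP25 (−0.60) lie lowest among the intervals that exclude 0, ZCRB1 (0.44) lies highest, and ZRSR2 is at −0.04.

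The promoters of the 3 genes with stable calls between experiments are shown because these differences held when any 1 library was left out. Each is a stretch of 300 bases across the RefSeq gene start on GRCh38.p14, 5′ to 3′ on the gene's strand, with GC boxes (CCGCCC or GGGCGG, either strand) in capitals.
SNRNP25: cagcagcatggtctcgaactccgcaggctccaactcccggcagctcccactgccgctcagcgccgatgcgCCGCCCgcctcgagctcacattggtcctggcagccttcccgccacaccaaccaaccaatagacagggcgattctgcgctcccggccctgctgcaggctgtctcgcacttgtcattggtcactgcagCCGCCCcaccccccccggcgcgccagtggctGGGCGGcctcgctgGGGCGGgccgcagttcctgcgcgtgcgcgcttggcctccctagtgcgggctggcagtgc
ARMC7: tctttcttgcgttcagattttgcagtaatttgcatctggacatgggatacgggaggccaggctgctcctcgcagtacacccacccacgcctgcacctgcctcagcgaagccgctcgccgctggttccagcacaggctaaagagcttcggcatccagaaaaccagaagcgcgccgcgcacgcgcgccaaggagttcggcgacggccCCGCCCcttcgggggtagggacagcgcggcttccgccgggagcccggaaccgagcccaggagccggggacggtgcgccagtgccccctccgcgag
ZCRB1: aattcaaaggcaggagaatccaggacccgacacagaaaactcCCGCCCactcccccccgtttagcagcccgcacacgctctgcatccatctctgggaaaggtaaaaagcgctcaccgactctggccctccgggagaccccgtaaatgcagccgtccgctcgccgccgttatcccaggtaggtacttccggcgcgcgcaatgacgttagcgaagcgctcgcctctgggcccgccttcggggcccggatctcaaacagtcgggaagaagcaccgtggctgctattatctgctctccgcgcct
The SNRNP25 promoter lies at chr16:53578-53877 on the plus strand and holds 4 GC boxes and 3 CCAAT boxes. The ARMC7 promoter lies at chr17:75109719-75110018 on the plus strand and holds 1 GC box. The ZCRB1 promoter lies at chr12:42326045-42326344 on the minus strand and holds 1 GC box and 1 ETS core. RefSeq promoters were matched for 8 of the 10 genes. A GC box was in 6 of these 8 and in 45% of 35116 promoters. A CCAAT box (CCAAT or ATTGG) was in 4 of 8 and in 34.6%, and an ETS core (CCGGAAG or CTTCCGG) in 3 of 8 and in 10.3%. The RNPC3 promoter gave 11 GC box matches, which lay in copies of a short tandem repeat, and the last of them overlapped. These are matches to letters and not measured sites.

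The rest of the splicing machinery, like the whole table, showed no call with the guides. Calls between experiments were present in each list, at a lower share than in the whole table. With the guides, 0 of 5 other minor spliceosome genes and 0 of 35 genes shared by both spliceosomes were called. Of the genes of the major spliceosome alone, 0 of 17 were called. The background was 0% of all 14898 genes. Their median log2 fold changes were 0.063, 0.033 and −0.001, beside 0.015 for the 10 genes. Among the other minor spliceosome genes, CENATAC, a protein of the U4atac/U6atac particle listed here as CCDC84, had knockout values of 12.4, 16.4, 10.5 and 13.7 CPM. Its controls were at 12.6, 12, 11.3 and 10.4 CPM, overlapping the knockouts. The guide 2 libraries were at 16.4 and 13.7 CPM and the guide 1 libraries at 12.4 and 10.5 CPM. How many of all genes have guide 2 libraries apart from the controls was not counted, so nothing is read from this order. With the block, CENATAC was at 0.38 with guide 2 (adjusted p = 0.68 by edgeR's quasi-likelihood test) and −0.01 with guide 1 on the log2 scale. It was not called with either.

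Between experiments, 2 of the 5 other minor spliceosome genes fell (28.6% of all genes did) and 0 rose (29.6%). TXNL4B, a thioredoxin-like protein that pairs with CENATAC, fell from 25.3 ± 0.794 to 14 ± 1.02 CPM (log2 fold change −0.86, adjusted p = 2.19e-05 by edgeR's quasi-likelihood test). PPIL2, a cyclophilin of the activated spliceosome, fell from 128 ± 2.42 to 89.7 ± 5.68 CPM (−0.51, adjusted p = 9.55e-05). Of the 35 shared genes, 3 rose (29.6% of all genes) and 16 fell (28.6%), or 54.3% in all, with a median of −0.185. The highest were PPIH (0.29), LSM2 (0.28) and SF3B1 (0.27), and the lowest SNRNP40 (−0.85), SF3B4 (−0.83) and PHF5A (−0.63). Of the 17 genes of the major spliceosome alone, 1 rose and 4 fell, or 29.4%, with a median of −0.055. SNRPA of the U1 particle was at 0.28, and U2AF1 (−0.80), SF1 (−0.66) and U2AF2 (−0.52), which recognise the 3′ end of major introns, were lowest. The shares called of the 10 genes (50%), of the other minor spliceosome genes (40%), of the shared genes and of the major genes were all below the 58.2% of all genes.

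The small nuclear RNAs of the minor spliceosome could not be followed in these libraries. RNU11 had 2 to 19 counts, RNU12 3 to 5, RNU4ATAC 0 to 9 and RNU6ATAC 1 to 16 counts in a library. These RNAs carry no poly(A) tail, and the libraries were made with an mRNA kit, so no level is read from them.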

How the data were processed

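Messenger RNA was sequenced in 8 libraries of SET-2 cells, from total RNA, with an mRNA kit from Kapa per the labels' protocols. The authors deposited 1 table of RSEM expected counts per gene symbol, which were already whole numbers. The submitters' processing notes name cutadapt 1.11, RSEM 1.2.30 and hg19; annotation and strand setting are not given in the sources used here. Columns were matched to samples by the library number in the titles, and 0 columns belonged to other samples. RSEM divides a read among all transcripts it matches, which bears on the values of overlapping genes. The floor of 3 counts covers counting error only, while the 95% intervals of fold changes include the spread between libraries.

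The edgeR filter filterByExpr, grouped by genotype, kept 14898 genes and at least 99.966% of each library's counts, and normalised by TMM. CPM uses TMM-scaled library sizes. Genes were tested by edgeR's quasi-likelihood method (F test), and p-values were adjusted by Benjamini-Hochberg over the whole table, with calls at 0.05. The knockout fit held genotype only. Effects by experiment, and the contrasts between experiments, used a fit with the 4 combinations of genotype and experiment, and guides from a fit with ZRSR2 guide 1, ZRSR2 guide 2 and non-targeting. Standard errors came from the F statistic. Alternatives were the experiment or guide as a replicate block, DESeq2, DESeq2 size factors, other filters on low counts, and leaving out each library. The versions were 4.0.16 of edgeR, 3.58.1 of limma and 1.42.0 of DESeq2 in R 4.3.3, and figures used matplotlib 3.10.9. The tests were tested on simulated data.

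The experiment number was taken to pair knockout and control libraries, on the assumption that it is the biological replicate number to which the labels give a day of collection. Deviations from the genotype means correlated at 0.678 to 0.846 in the 8 pairs of the same experiment and at −0.816 to −0.709 in the 8 pairs of different ones. No 2 libraries of a group agreed within sampling noise (smallest chi-square per degree of freedom 3.05). Named genes were the 10 genes, ZRSR2, genes overlapping them, and up to 3 genes per direction and list past the threshold. CENATAC, whose values are given without a call, was chosen after its values were seen. The genes, lists and tests were chosen with earlier results of these data known. Transcript lengths and tandem sites came from GENCODE 29 on GRCh38, and promoters from RefSeq on GRCh38.p14. The files are on hg19, and the coordinates printed are those of the GRCh38 sequences only.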

Additional observations from a re-analysis of the deposited data

Results flagged for a closer look

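In the knockout libraries, ZMAT5 was at 31.4 CPM in replicate 2, while the other 3 were at 32.6 to 32.8 CPM, so that 1 library stood apart from a very tight group. In experiment 2, ZMAT5 was at 37.7 CPM in control replicate 3, the deepest library, while the other 3 libraries were at 32.6 to 33.2 CPM. Without that library the log2 fold change of ZMAT5 between genotypes was 0.06 in place of −0.02, and it was not called either way. Of 44 groups of 4 libraries examined, 2 held such a library, and chance gives about 2.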

How the results depend on the processing

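The count of the 10 genes called with the ZRSR2 guides was 0 under every alternative run. Across the 69 results and 1000 values under alternatives, 860 were rated the same as reported. For a gene's fold change this meant direction and call, while counts and list medians could differ within a set limit. The count of all genes called for knockout against non-targeting was 0 as reported, 0 with the experiment as a replicate block by edgeR, 4 under DESeq2 and 31 with the block under DESeq2. Within experiment 1 it was 5 under DESeq2 and 40 without a count filter. Within experiment 2 it was 13 and 116, and for the difference between experiments 5 without a filter. Guide 1 gave 1 gene under DESeq2 and 4 with the replicate block under DESeq2. Guide 2 gave 3 under DESeq2, 3 with the replicate block by edgeR and 51 with it under DESeq2. Guide 2 against guide 1 gave 1 with the block under DESeq2. The exact permutation p of ZRSR2 was 0.0556 within experiments, the smallest that design allows.

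The smallest effects changed sign. SNRNP35 was at −8.08e-05 under DESeq2 and −8.56e-05 with the block, and ZCRB1 at 0.00494 with the replicate block by edgeR and 0.00281 by DESeq2. Leaving out 1 library, the knockout effect ranged from −0.105 to 0.173 for SNRNP25, −0.0701 to 0.052 for SNRNP35, −0.136 to 0.0238 for RNPC3, −0.0608 to 0.0595 for ZMAT5, −0.13 to 0.139 for ZCRB1, −0.0633 to 0.136 for RBM48 and −0.078 to 0.165 for ARMC7. SCNM1 ranged from −0.634 to −0.0381. With guide 1, SNRNP48 ranged from −0.00461 to 0.276 and RNPC3 from −0.342 to 0.151. With guide 2, RNPC3 ranged from −0.24 to 0.128, and for guide 2 against guide 1 from −0.194 to 0.299. The difference of the knockout effect between experiments ranged from −0.0284 to 0.313 for SNRNP48 and from −0.557 to 0.0478 for ZRSR2, and ZRSR2 between experiments from −0.204 to 0.0926. Counts of genes called ranged from 0 to 119 for knockout (119 without control replicate 3, with the block under DESeq2), 0 to 2 within experiment 1, 0 to 154 within experiment 2 (154 without control replicate 3) and 0 to 4 with guide 2. Between experiments, 3 to 7 of the 10 genes were called in fits that left out 1 library, and 7178 to 9193 genes over the whole table. With all libraries kept, 58.2% of all genes were called. Leaving out a library in fits with the block was chosen after seeing the data. The cause of these shifts was not tested. SCNM1, with 5 to 33 counts in a library, had the fewest of the 10 genes, and the reason for its low counts was not tested.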
